A study of Mus musculus with 9 samples.

Results

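JmjC histone demethylases remove methyl groups from lysines of histone tails, with iron and oxoglutarate as cofactors. Members of this enzyme family were followed in BV-2 cells, a mouse microglial line that grows without limit in culture. They were chosen by name and are the rows of the deposited gene tables for Kdm2a, Kdm2b, Kdm3a, Kdm3b, Kdm4a, Kdm4b, Kdm4c, Kdm5a, Kdm6a and Kdm6b, which makes 10 of 48526 genes. All 10 passed the filter on low counts and are among the 14702 genes tested. RNA was sequenced in 9 libraries, and every library comes from cells that received LPS, the endotoxin of Gram-negative bacteria, at 100 ng/ml. Unprimed cells (UP, n = 3) met LPS for the first time in this step. ULP cells (n = 3) had been primed before with the ultra-low dose of 1 fg/ml, and HP cells (n = 3) with the high dose of 100 ng/ml. The dose field of the labels gives the 2 priming doses the other way round, so the groups follow the titles and descriptions, which match the methods of the study. By these methods priming lasted 24 h and the second LPS dose was given on day 6, while the hours from that dose to harvest are not given for these libraries. Libraries of cells without any LPS were not analysed here, so that induction by LPS itself cannot be read from these data. The labels do not say whether the libraries of a group stem from different cultures. The p-values below therefore cover the spread between these libraries alone, and that spread may be technical. In bulk RNA, fewer cells that express a gene and less RNA per cell cannot be told apart.

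The family works by opposing the enzymes that write histone methylation. Kdm6a and Kdm6b take methyl groups off lysine 27 of histone H3 (H3K27), the mark that Polycomb complexes write on silent genes. Kdm6b is known as a gene that NF-kB switches on in macrophages after LPS, whereas Kdm6a is carried by the X chromosome and acts within a complex of the methyltransferases Kmt2c and Kmt2d. Kdm5a erases methylation of H3K4, a mark of active promoters. Kdm3a and Kdm3b act on H3K9, Kdm4a, Kdm4b and Kdm4c on H3K9 and H3K36, and Kdm2a and Kdm2b, which bind unmethylated CpG islands, on H3K36.

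The members share their catalytic fold, yet their transcripts differ in base composition. Over the longest reference transcript, G and C made up 41.2% of the bases of Kdm6a and 59.6% of those of Kdm6b, against a median of 49.4% over all genes tested. The coding stretch around the iron-binding histidine and glutamate of the JmjC domain shows this at the same place of both proteins. It is given 5′ to 3′ from GENCODE transcripts of the mouse reference, with the codons of this histidine and this glutamate in capitals.
Kdm6a: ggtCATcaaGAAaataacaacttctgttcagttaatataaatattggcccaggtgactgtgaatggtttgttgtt
Kdm6b: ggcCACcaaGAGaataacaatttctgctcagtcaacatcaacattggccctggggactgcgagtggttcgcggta
Kdm4a: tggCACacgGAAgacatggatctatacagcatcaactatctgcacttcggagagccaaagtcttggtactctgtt
Kdm4b: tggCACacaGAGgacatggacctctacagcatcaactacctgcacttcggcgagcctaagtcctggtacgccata
Kdm4c: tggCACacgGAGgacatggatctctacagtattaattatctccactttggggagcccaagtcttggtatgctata

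Each stretch has 75 bases, spans exons 23 and 24 of Kdm6a, exons 17 and 18 of Kdm6b and exons 5 and 6 of each Kdm4 transcript used. Kdm6a and Kdm6b differed at 17 of the 75 bases, and 16 of these 17 lay at the third (wobble) position of a codon. G or C stood at 6 of the 25 wobble positions in Kdm6a and at 18 of 25 in Kdm6b, so that the GC content of the stretch was 34.7% in Kdm6a and 52.0% in Kdm6b. Among the Kdm4 genes it was 45.3% in Kdm4c, 46.7% in Kdm4a and 54.7% in Kdm4b. Over the longest transcript it was 44.8% in Kdm4c, 53.6% in Kdm4a and 55.4% in Kdm4b, so the stretch of Kdm4a lies below its transcript. No run of 51 bases, the read length, was shared between transcripts of any 2 members of 1 subfamily, the longest being 49 bases between Kdm4b and Kdm4c. A run of 61 bases was shared by Kdm6a and Uty, its relative on the Y chromosome, which did not pass the filter on low counts.

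Depth was 24189203 to 27802244 assigned counts per library, with a median of 26115015. Of 11 microglial markers 9, Tmem119 among them, had a mean of at least 1 RPKM (reads scaled to gene length and to library size). Cx3cr1 and P2ry12 lay below 0.1 RPKM. No marker of astrocytes, neurons, oligodendrocytes, endothelium or fibroblasts reached a mean of 1 RPKM. The libraries stood apart along 1 axis, on which UP and primed libraries did not overlap but the ULP and HP libraries did. The first principal component held 79.1% of the variance and placed ULP 4 (-39.2) and HP 6 (-20.4) on the side of the UP libraries (-73.0 to -46.4), and ULP 5, ULP 6, HP 4 and HP 5 at 44.0, 52.2, 57.5 and 75.5. Malat1, a long noncoding RNA that is kept in the nucleus, moved with it, from 2.17 to 3.14 RPKM in UP cells, 4.81 in ULP 4 and 5.16 in HP 6 to 35.0, 30.2, 45.6 and 96.7 RPKM in ULP 5, ULP 6, HP 4 and HP 5. The part of this axis in the results was not tested. Values without ULP 4 and HP 6 or with GC content corrected are given below as descriptions. Without ULP 4 and HP 6 the axis and priming cannot be told apart, and the correction removes a trend with GC content alone.

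By RPKM, Kdm4a was the highest member in each group. Its mean ± SD (n = 3) was 14.3 ± 2.33 in UP cells, 14.8 ± 0.61 after ultra-low and 13.5 ± 0.60 after high-dose priming. Kdm2a followed with 8.30 ± 2.31, 10.7 ± 0.90 and 10.7 ± 0.55. Kdm3a and Kdm3b came next, and their libraries overlapped in every group. Kdm6b was the lowest member in each group, at 0.85 ± 0.29, 1.02 ± 0.07 and 0.98 ± 0.04 RPKM in the same order of groups, and its libraries did not overlap those of the next higher member. The order changed in the middle of the list. Kdm6a and Kdm4c stood at ranks 8 and 9 in UP cells and at ranks 5 and 8 in ULP as well as in HP cells, where neighbours from Kdm6a down to Kdm2b overlapped.

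**Figure D1:**
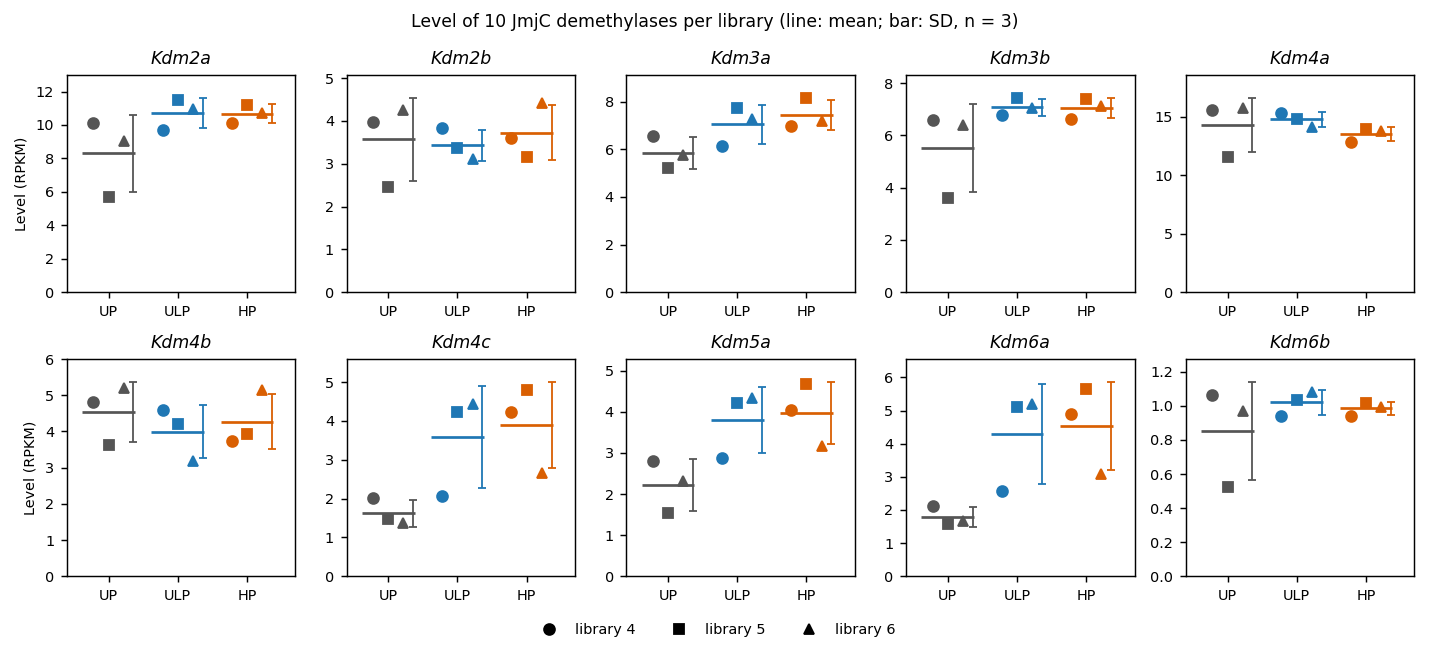
Level of each member in RPKM (vertical axis, from 0) in the UP, ULP and HP libraries, with the library number as the symbol, the group mean as a line and the SD (n = 3) as a bar. Kdm4c, Kdm5a and Kdm6a are high in ULP 5, ULP 6, HP 4 and HP 5, while Kdm6b differs from about 1 RPKM only in UP 5 (0.521 RPKM).

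Kdm6b did not differ between primed and unprimed cells beyond the spread of the libraries. Its level was 1.06, 0.521 and 0.972 RPKM in UP 4, 5 and 6, 0.941, 1.04 and 1.08 in ULP 4, 5 and 6, and 0.942, 1.02 and 0.996 in HP 4, 5 and 6. Apart from UP 5, which stood below, the libraries lay between 0.941 and 1.08 RPKM, and the groups overlapped. The values rest on 93 counts in UP 5 and on 171 to 194 counts in the other libraries. The log2 fold change, from edgeR's quasi-likelihood test on the counts, was 0.18 in ULP over UP cells (95% interval -0.33 to 0.69, Benjamini-Hochberg adjusted p = 0.596) and 0.09 in HP over UP cells (-0.42 to 0.61, adjusted p = 0.765). Without UP 5 both values turned, to -0.07 and -0.15 (adjusted p = 0.691 and 0.332). HP cells differed from ULP cells by -0.08 (-0.59 to 0.43, adjusted p = 1.00). The intervals span 0 in each comparison and leave changes within them undecided. Kdm6b lies on chromosome 11 (chr11:69398508-69420367, GRCm38.p6). In the GENCODE annotation 286 bases of its exons, 4.11% of them, are shared with the antisense transcript Kdm6bos, which had 0 to 4 counts per library.

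The low value of UP 5 was not particular to Kdm6b. UP 5 was the lowest of the 9 libraries for 7 of the 10 members, all but Kdm4a, Kdm4b and Kdm4c, against 21.9% of all genes tested. Set against the mean of UP 4 and UP 6, UP 5 differed by -0.89 to -0.12 in log2 CPM over the members (median -0.53), and by 0.05 in the median over all genes. It lay lower by 0.5 or more for 5 members, against 12.8% of all genes. Over the 10 members this difference had r = -0.39 with log2 gene length and r = -0.55 with GC content. Over all genes r was -0.40 with length (n = 14702) and -0.19 with GC content (n = 14565). Genes of at least 4895 bases, the length of the shortest member, had a median of -0.22.

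Kdm6a, the other eraser of H3K27 methylation, had the largest fold change of the 10 members in both comparisons with UP cells. It was at 2.13, 1.58 and 1.65 RPKM in UP 4, 5 and 6, at 2.56, 5.12 and 5.20 in ULP 4, 5 and 6, and at 4.90, 5.65 and 3.08 in HP 4, 5 and 6. All 6 primed libraries were above all 3 UP libraries, but ULP 4 and HP 6 lay closer to the highest UP library than to ULP 5, ULP 6, HP 4 and HP 5. The log2 fold change was 1.17 (SE 0.29, 2.25-fold) in ULP and 1.22 (SE 0.29, 2.34-fold) in HP over UP cells. By edgeR with Benjamini-Hochberg adjustment neither passed the threshold of 0.05 (adjusted p = 0.169 and 0.0606). Kdm6a is located at chrX:18160862-18279936 (GRCm38.p6).

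Kdm4c was high in the same libraries as Kdm6a. Its level was 2.02, 1.47 and 1.37 RPKM in UP 4, 5 and 6, 2.06, 4.22 and 4.44 in ULP 4, 5 and 6, and 4.23, 4.80 and 2.65 in HP 4, 5 and 6. ULP 4 lay just above UP 4, and the groups did not overlap. The log2 fold change was 1.05 (SE 0.31, edgeR adjusted p = 0.169) in ULP and 1.15 (SE 0.31, adjusted p = 0.0606) in HP over UP cells. The related Kdm4a and Kdm4b, with the same substrates, ranged over the 9 libraries from 11.6 to 15.7 RPKM for Kdm4a and upward from 3.18 RPKM for Kdm4b, with groups that overlapped between UP and primed cells. Their log2 fold changes over UP cells were between -0.26 and -0.03. Kdm4c lies at chr4:74242497-74405864, Kdm4a at chr4:118136957-118180090 and Kdm4b at chr17:56325970-56403774 (GRCm38.p6).

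Kdm5a, the eraser of H3K4 methylation, was the third member with this pattern. It measured 2.80, 1.54 and 2.31 RPKM in UP 4, 5 and 6, 2.88, 4.22 and 4.33 in ULP 4, 5 and 6, and 4.05, 4.69 and 3.18 in HP 4, 5 and 6. The primed libraries were again above the UP libraries, with ULP 4 next to UP 4. The log2 fold change was 0.69 (SE 0.23, edgeR adjusted p = 0.169) in ULP and 0.73 (SE 0.23, adjusted p = 0.0656) in HP over UP cells. Of its exon bases 4.15% are shared with Ccdc77 on the opposite strand, which had 65 to 318 counts per library, and no source read here states if strand was considered in counting. Kdm5a lies at chr6:120364099-120444574 (GRCm38.p6).

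The other members had smaller differences. Kdm2a had log2 fold changes of 0.29 in ULP and 0.25 in HP over UP cells, Kdm3b of 0.28 and 0.23, and Kdm3a of 0.18 and 0.23, with adjusted p-values of 0.189 to 0.379 by edgeR. Kdm2b, at 2.47 to 4.43 RPKM, had -0.13 and -0.06. Kdm2a and Kdm3b followed Kdm6b in that UP 5 was their one low library, at 5.70 RPKM against 9.07 to 11.5 for Kdm2a and at 3.60 RPKM against 6.40 to 7.43 for Kdm3b. Without UP 5 the log2 fold changes were 0.09 and 0.05 for Kdm2a, and 0.05 and 0.0099 for Kdm3b. Of the exon bases of Kdm2b 5.89% overlap Rnf34 on the opposite strand, which had 887 to 1202 counts per library. Kdm2a is located at chr19:4316144-4398721, Kdm2b at chr5:122870664-122989270 and Kdm3a at chr6:71588970-71632990 (GRCm38.p6).

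**Figure D2:**
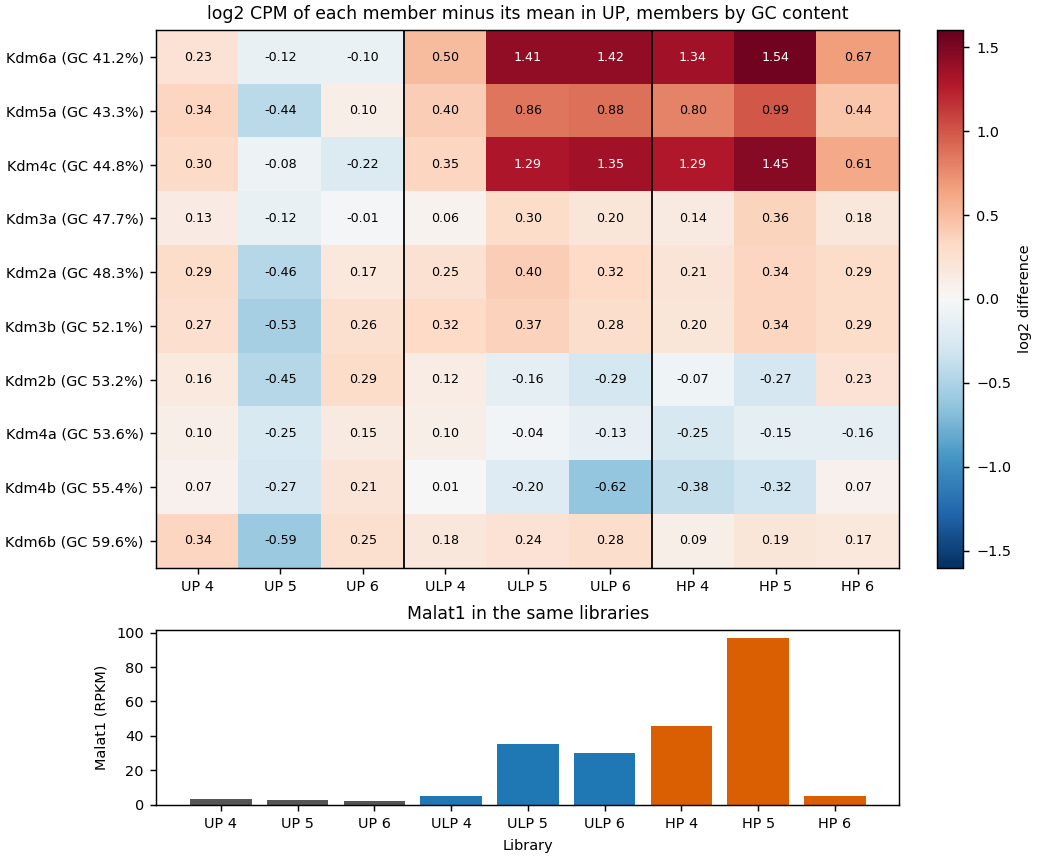
Upper panel: log2 CPM of each member minus its mean over the UP libraries, per library, with members ordered by the GC content of their transcript from low (top) to high. Lower panel: level of Malat1 in RPKM in the same libraries. The 3 members with the lowest GC content are raised where Malat1 is at 30.2 RPKM or more. In those libraries Kdm6b, in the last row, lies 0.09 to 0.28 above its UP mean, which includes UP 5 at -0.59.

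Over the 10 members edgeR called 0 higher and 0 lower in ULP over UP cells (0% of all genes tested higher and 0% lower), and 0 and 0 in HP over UP cells (0.0884% and 0.435%). At an unadjusted p under 0.05, Kdm4c, Kdm5a and Kdm6a were higher and none was lower in both comparisons, against 17.3% of all genes higher and 9.79% lower in ULP, and 24.3% and 16.6% in HP cells. DESeq2 called Kdm4c and Kdm6a higher in ULP (7.04% of all genes higher, 0.0884% lower) and Kdm4c, Kdm5a and Kdm6a in HP cells (17% higher, 7.79% lower). Both comparisons share the 3 UP libraries. The 3 genes were called by edgeR in both comparisons without ULP 4 (13.4% of all genes higher in ULP and 17.2% in HP cells), and in HP cells without HP 6 (23.9%). Without both libraries the adjusted p-values of Kdm6a were 0.000216 in ULP and 0.000142 in HP cells by edgeR, where 23.6% and 28.1% of all genes were called higher. ULP 4 and HP 6 are also the primed libraries with the lowest Kdm6a (2.56 and 3.08 RPKM). Leaving them out thus raises its fold change and narrows its spread by construction, so these p-values are descriptions. With both libraries kept, edgeR called Kdm4c and Kdm6a in HP cells when the filter was omitted or when only the 6 libraries compared were fitted. The calls thus turned with the libraries, the tool, the filter and the samples in the fit.

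By library levels, all 3 ULP libraries were above all 3 UP libraries for Kdm3b, Kdm4c, Kdm5a and Kdm6a, against 14.8% of all genes, and no member was lower in this way (13.5%). All 3 HP libraries were so for Kdm3a, Kdm4c, Kdm5a and Kdm6a, against 21.9% of all genes, and again no member was lower (20.9%). By RPKM, which lacks the TMM scaling of library sizes, Kdm3b joined them in HP cells (30.1% of all genes). An exact two-sided permutation test of RPKM between the 6 primed and 3 UP libraries, which cannot go below 0.0119, gave p = 0.0119 for Kdm3b and Kdm5a and p = 0.0238 for Kdm6a. The same exact test gave p = 0.0357 for Kdm2a, Kdm3a and Kdm4c, and p = 0.25 for Kdm6b. At p under 0.05 these are 6 of 10 members, against 19.1% of all genes. With adjustment over all genes tested their p was 0.158 and no gene passed in this test. RPKM lacks the TMM scaling here too. For Kdm3b, UP 4 was at 6.605 and HP 4 at 6.623 RPKM, but by TMM-scaled CPM HP 4 (45.6) lay below UP 4 (48.1). Without UP 5 the log2 fold changes in ULP and HP cells were 0.09 and 0.05 for Kdm2a, and 0.05 and 0.0099 for Kdm3b.

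Between HP and ULP cells no member was called. The log2 fold changes went from -0.17 for Kdm4a to 0.10 for Kdm4c. By edgeR 0 of 10 passed (0.0204% of all genes higher and 0.15% lower), and 0 did so without adjustment (1.62% higher and 2.32% lower). With DESeq2 it was also 0 (0.0748% higher and 0.653% lower). Kdm4a was the one member whose libraries did not overlap, at 14.2 to 15.4 RPKM in ULP and 12.9 to 14.0 RPKM in HP cells, against 5.16% of all genes lower and 4.48% higher in this way. Its 95% interval was -0.46 to 0.13.

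Set beside the other members in the fit without corrections, Kdm6b lay in the lower part of the list. Its log2 fold change was smaller than that of 6 and larger than that of 3 other members in each comparison with UP cells. The difference from the median of the other 9 was -0.10 in ULP and -0.14 in HP cells. With GC content corrected the difference turned to 0.27 and 0.21. In ULP cells Kdm4c (0.69) then had a larger value than Kdm6b (0.43, SE 0.23), and Kdm3b (0.42, SE 0.19) was level with it. In HP cells Kdm4c (0.74) and Kdm3b (0.40) both had larger values than Kdm6b (0.34). The median of all 10 members was 0.23 in both comparisons, and that of all genes tested was -0.01 and 0.01. Without UP 5 the median of the members was 0.07 in ULP and 0.03 in HP cells. It was -0.09 and -0.12 with gene length corrected, 0.19 and 0.15 with GC content corrected, and -0.0022 and -0.04 with both.

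Gene length ordered the members by their fold change only loosely. Lengths used for RPKM went from 4895 bases for Kdm4b to 14294 for Kdm2a, and each was above the median of 3243 bases over all genes. Kdm5a (14158 bases) and Kdm2a (14294 bases) differ little in length, but had log2 fold changes of 0.69 and 0.29 in ULP cells. Kdm6b (6954 bases), Kdm3b (7112 bases) and Kdm6a (8158 bases) are also close, and had 0.18, 0.28 and 1.17. Over the 10 members r between log2 length and the log2 fold change was 0.16 in ULP and 0.17 in HP cells (rank correlation 0.37 and 0.44), against 0.23 and 0.19 over all 14702 genes. Members and genes share the same libraries, so these values are descriptions.

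GC content ordered them more closely. Over the 10 members r was -0.82 in ULP and -0.84 in HP cells (rank correlation -0.87 and -0.88), against -0.54 and -0.51 over the 14565 genes with a GC content. The 3 members with the lowest GC content, Kdm6a (41.2%), Kdm5a (43.3%) and Kdm4c (44.8%), were those with the 3 largest fold changes. Kdm6b had the highest GC content of the 10 (59.6%), above that of 96.6% of all genes tested, and departed upwards from the trend. Kdm4b (55.4%) had the lowest fold change, with -0.26 in ULP and -0.21 in HP cells.

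**Figure D3:**
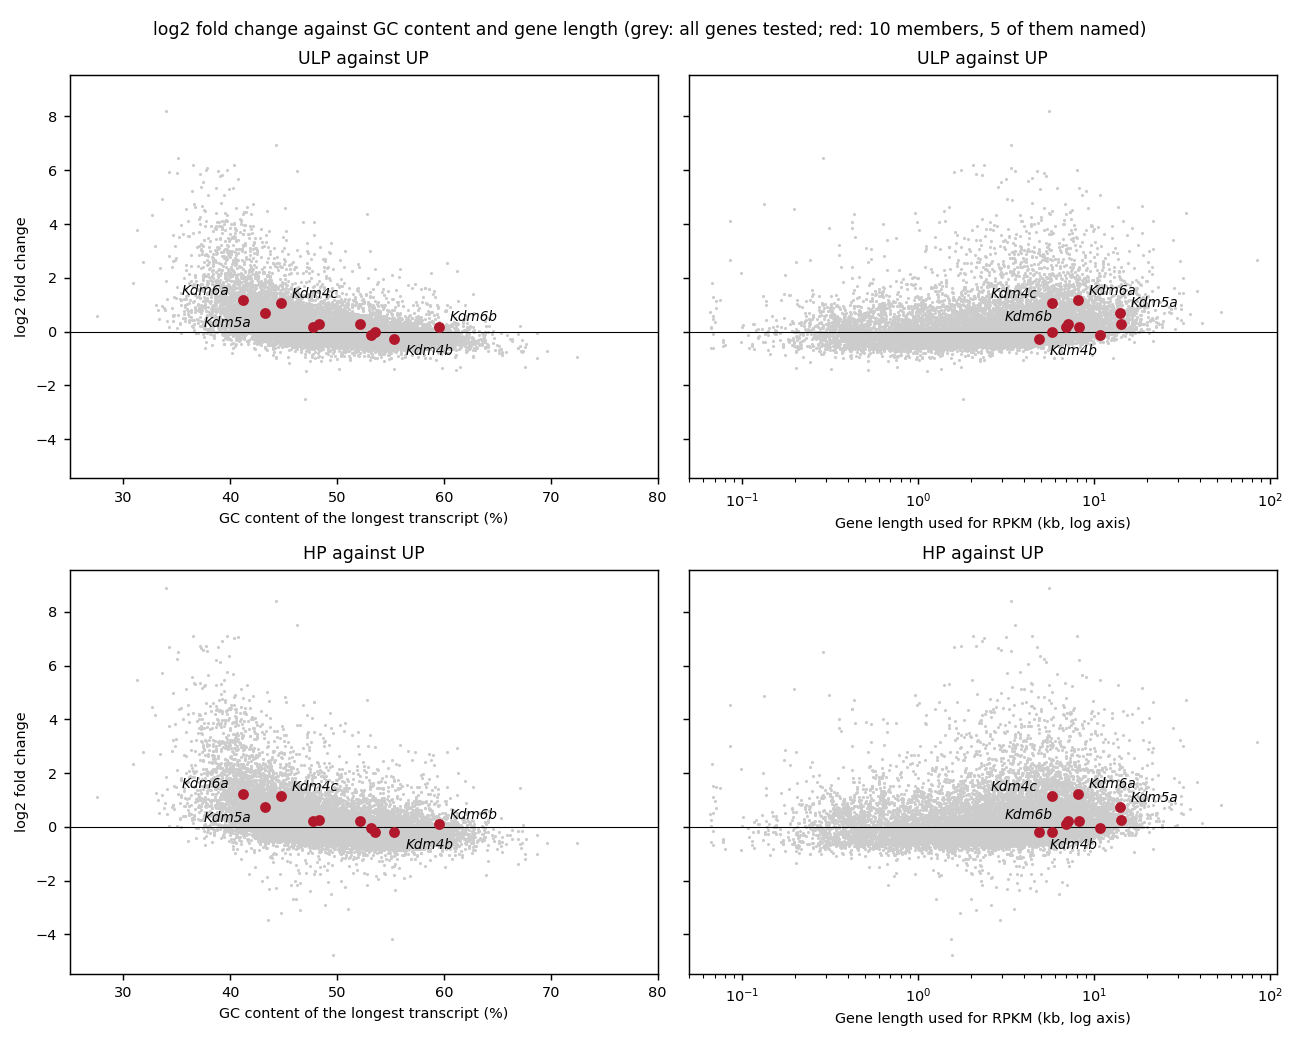
log2 fold change (vertical axis) of ULP (upper row) and HP cells (lower row) over UP cells against GC content in percent (left) and gene length in kilobases on a log axis (right), with all genes tested in grey and the 10 members in red. The members fall with GC content (r = -0.82 and -0.84) and show a weaker relation with length (r = 0.16 and 0.17).

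With a correction for GC content in each library, chosen after seeing the data, the 3 genes parted. Kdm4c moved from 1.05 to 0.69 (SE 0.20) in ULP and from 1.15 to 0.74 (SE 0.20) in HP cells (edgeR adjusted p = 0.215 and 0.0645). Kdm6a moved down to 0.29 and 0.21 (SE 0.14 in each, adjusted p = 0.238 and 0.265), and Kdm5a to 0.16 and 0.11 (SE 0.19 in each). Kdm6b moved up to 0.43 and 0.34 (SE 0.23 in each, adjusted p = 0.275 and 0.288). A correction for gene length acted on other members. It left Kdm6a at 0.84 and 0.88 and Kdm4c at 0.86 and 0.96, but brought Kdm5a, among the longest members, to 0.17 and 0.16, and turned Kdm6b to -0.05 and -0.15. With both corrections Kdm4c was at 0.62 and 0.68, Kdm6a at 0.16 and 0.09, Kdm5a at -0.08 and -0.14 and Kdm6b at 0.31 and 0.21. The sign of Kdm6b thus turned with gene length alone corrected and without UP 5, and that of Kdm4c and Kdm6a was positive in each of these fits.

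**Figure D4:**
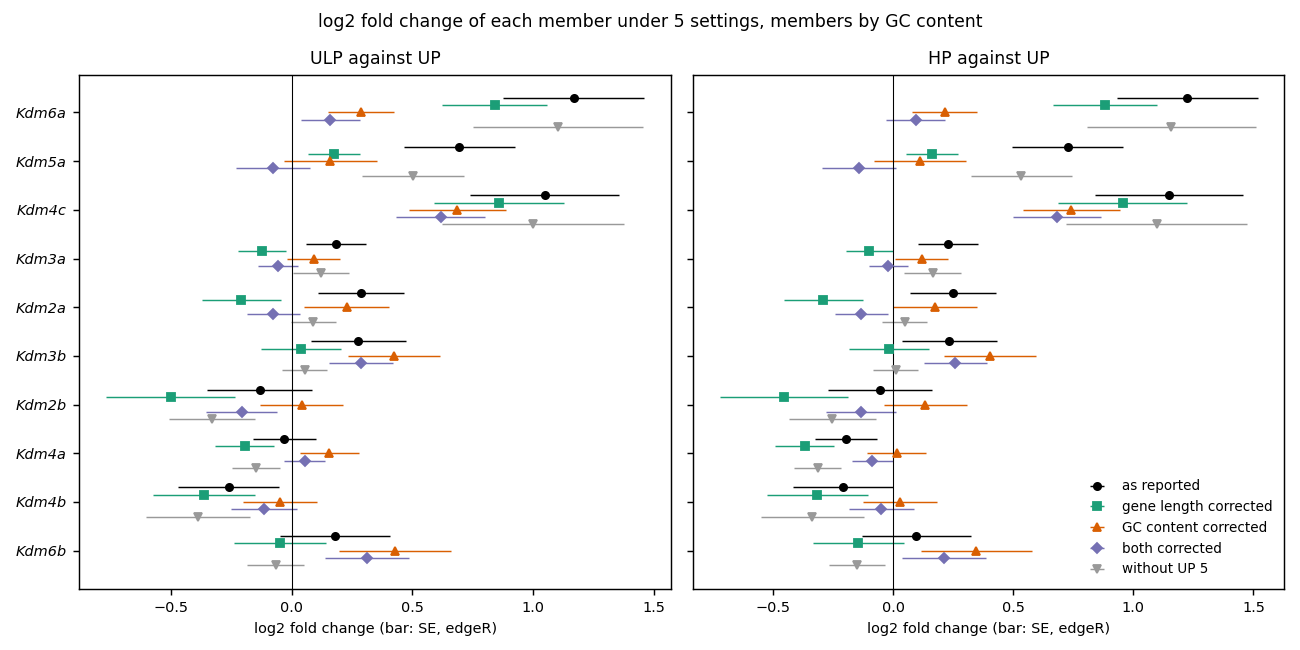
log2 fold change with SE (edgeR) of each member in ULP (left) and HP cells (right) over UP cells, as reported, with gene length, GC content or both corrected for, and without UP 5. Kdm4c stays at 0.62 or above in each fit shown, Kdm6a drops to 0.29 or below once GC content is corrected for, and Kdm6b lies on either side of 0.

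The genes whose profile over the 9 libraries was most like that of Kdm6b were Zdhhc5, Cdc42bpb, Plxna1, Spg11 and Epg5. Likeness was measured as the root mean square difference of centred log2 CPM over 9 libraries, which was 0.053 for Zdhhc5 and 0.060 for Epg5, against a median of 0.370 over 9306 genes. Set against its UP mean, Kdm6b was at -0.59 in UP 5 and at 0.09 to 0.34 in the other libraries. Likeness to it thus rests largely on UP 5. Among the members Kdm3b (0.074) and Kdm2a (0.084) were nearest to Kdm6b. Only 13 and 34 genes were nearer than these, whereas 8126 genes were nearer than Kdm6a (0.589), which shares its substrate.

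The partner complexes of the members held genes with the library pattern of Kdm6a, which follows the main axis over all genes tested. Rnf2, the ubiquitin ligase of the Polycomb complex that Kdm2b recruits, was at 1.74 to 2.76 RPKM in UP cells and at 3.09, 10.3 and 10.8 in ULP 4, 5 and 6, and 12.3, 13.1 and 4.17 in HP 4, 5 and 6. Its log2 fold change was 1.64 in ULP and 1.91 in HP cells (edgeR adjusted p = 0.169 and 0.0606), and the corepressor Bcor of the same complex had 1.29 and 1.41. Over the 9 genes listed for this complex 0 were called, the medians were 0.19 and 0.23, and the lowest values were -0.29 and -0.48. Of the 8 genes tested of the complex that holds Kdm6a, 0 were called, and the medians were 0.19 and 0.34. The methyltransferases Kmt2d (1.06 and 1.48) and Kmt2c (1.33 and 1.47) had its largest values, and the lowest were -0.20 and -0.27. Kmt2d has a GC content of 58.4% and Bcor one of 53.1%, and Kmt2c one of 46.5%. In PRC2, which writes the mark that Kdm6a and Kdm6b erase, 0 of 7 genes were called, and the medians were 0.21 and 0.20. Suz12 had 2.84 and 2.98, and the lowest values were -0.37 and -0.48.

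Of 16 further demethylases, 10 could be tested, 0 were called, and the medians were 0.01 and 0.00. Kdm7a (2.75 and 2.93), which acts on H3K9 and H3K27, Jmjd1c (2.41 and 2.56), a relative of Kdm3a, and Kdm1b (0.69 and 0.82), a demethylase of another fold, had an unadjusted p under 0.05 in both comparisons. These are 3 of 10 genes, where 17.3% of all genes were higher by this measure in ULP and 24.3% in HP cells. Kdm7a was at 0.64 to 1.22 RPKM in UP cells and at 8.58 to 11.2 in ULP 5, ULP 6, HP 4 and HP 5, with 1.45 in ULP 4 and 1.99 in HP 6. Its GC content of 39.6% is below that of each member.

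Early response genes of LPS, many of them driven by NF-kB as Kdm6b is, served as a reference for Kdm6b. Of 20 such genes tested, 0 were called in ULP cells (median -0.23), with 7 lower and 2 higher at an unadjusted p under 0.05, where 9.79% of all genes were lower and 17.3% higher. In HP cells 7 fell by edgeR, namely Ccl4, Ccl5, Cxcl10, Il1b, Irf1, Nfkbie and Tnf (median -0.70), against 0.435% of all genes. Leaving out UP 4, UP 5, HP 4 or HP 5 left 0 of them called. The count was 2 without ULP 6, 3 without UP 6, 4 without ULP 5, 11 without ULP 4 and 12 without HP 6. The chemokine Cxcl10 was at 18.9 RPKM or more in UP cells, at 19.9 to 29.0 after ultra-low and at 8.24 or less after high-dose priming, a log2 fold change of -1.71 in HP over UP cells (adjusted p = 0.0140). Ccl5, also a chemokine, had -1.77 (adjusted p = 0.0460), and Irf1, a transcription factor of the interferon response, -1.50 (adjusted p = 0.0258). Over the 20 genes the log2 fold changes in HP over UP cells went from -1.77 to 0.78. The interval of Kdm6b in HP over UP cells had its lower bound at -0.42, and the difference between Kdm6b and these genes was not tested. Without UP 5 the median of the early response genes was -0.40, and Kdm6b was at -0.15. Of 11 hypoxia targets tested, listed because Kdm3a is itself known to be induced by hypoxia, 0 were called, and the medians were -0.25 and -0.20.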

How the data were processed

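Poly(A) RNA of BV-2 cells was sequenced with the TruSeq Stranded mRNA kit as 51-base single reads on 2 lanes. The authors converted base calls with bcl2fastq 1.8.4, aligned with TopHat2 2.1.0 and counted with featureCounts 1.5.0. The submitters' processing notes name the build GRCm38, while the methods text names a later one. The deposited counts are whole reads per gene, not normalized. The authors calculated the deposited RPM (reads scaled to library size) and RPKM from these counts, and RPM divided by RPKM gave the gene lengths used here. Of 48526 genes, 24933 had no count.

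Here, filterByExpr kept 14702 genes, TMM scaled the libraries, and edgeR 4.0.16 (R 4.3.3) fitted a quasi-likelihood model with a term for the group over all 9 libraries. The threshold for a call was 0.05 after Benjamini-Hochberg adjustment over all genes tested. For the exact permutation test the planned adjustment over the members was replaced by one over all genes. Alternatives were a replicate block, loess offsets (span 0.3) for gene length and GC content, DESeq2 1.42.0, its RLE size factors within edgeR, omission of the filter, only the 6 libraries compared, limma 3.58.1 on log2(RPKM + 0.1) and log2(RPKM + 1), and leaving out libraries. GC content, from the longest GENCODE transcript, was found for 99.1% of genes tested. Coordinates are from RefSeq on GRCm38.p6. Exon overlaps are from the GENCODE annotation, where exon totals can exceed the lengths used for RPKM (14637 against 7112 bases for Kdm3b). log2 CPM used a prior count of 2. The fit was tested on simulated counts that held no axis splitting the libraries of a group. That test therefore does not cover the main axis of these data. The members and lists were chosen with earlier results of these data known. From each list up to 3 genes with the largest absolute log2 fold change in HP over UP cells at a mean CPM of at least 5 were named, and for Kdm6b the 5 most similar genes. Intervals cover the spread between libraries.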

Additional observations from a re-analysis of the deposited data

How the results depend on the processing

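The count of members called, 0 in each comparison, became 2 in ULP over UP cells with DESeq2 and 3 without ULP 4 and HP 6, and in HP over UP cells 3 with DESeq2 or without ULP 4 and HP 6, and 2 without the filter or with only the 6 libraries compared. Leaving out 1 library gave 0 to 3 in both of these comparisons and 0 in HP over ULP cells. Genes called went from 0 in ULP over UP cells to 1048 with DESeq2 and 5702 without ULP 4 and HP 6 (0 to 2864 without 1 library). In HP over UP cells they went from 77 to 3650 with DESeq2, 158 with GC content corrected, 245 with GC content and length corrected, 46 and 38 with limma at pseudocounts of 0.1 and 1, 2018 without the filter, 1511 with only the 6 libraries compared and 7243 without ULP 4 and HP 6 (0 to 5721 without 1 library). In HP over ULP cells they went from 25 to 107, 63 and 94 with DESeq2 and the 2 GC corrections, 44 with length corrected, 10 with limma at 1, 53 without the filter, 0 with only the 6 libraries compared and 8 without ULP 4 and HP 6 (0 to 30 without 1 library). In HP over UP cells the all-gene median shifted by 0.13 with limma on log2(RPKM + 0.1).

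With the replicate block, genes called were 0 in HP over UP and 0 in HP over ULP cells, with GC content added 12 and 8, and with length added 7 and 0, and no member was called. Deviations of same-numbered libraries from their group means correlated between -0.838 and 0.683. With 3 libraries per group, whose deviations also hold the main axis of the data, these values cannot decide whether the numbers pair the libraries. The difference of Kdm6b from the median of the other members was 0.075 in ULP and -0.046 in HP cells with length corrected (0.099 and -0.023 with the replicate block), 0.27 and 0.21 with GC content corrected (0.25 and 0.21 with the replicate block), 0.37 and 0.26 with both and -0.20 and -0.22 with limma at 1, and without 1 library -0.16 to -0.06 and -0.20 to -0.10. The r with length became -0.13 and -0.13 with length corrected (also with the replicate block), -0.19 and -0.22 with GC content corrected (-0.15 and -0.19 with the replicate block) and -0.47 and -0.50 with both, and was 0.10 to 0.21 and 0.11 to 0.21 without 1 library. The causes were not tested beyond what each correction removes by construction.

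No value that changed sign passed the threshold, either as reported or under the setting that turned it. In ULP and HP over UP cells, length correction gave Kdm2a -0.21 and -0.29, Kdm3a -0.13 and -0.10 and Kdm6b -0.050 and -0.15, and Kdm3b -0.018 in HP cells (with the replicate block -0.20, -0.29, -0.13, -0.099, -0.026, -0.12 and -0.0021). GC correction gave Kdm2b 0.041 and 0.13, Kdm4a 0.16 and 0.015 and Kdm4b 0.029 in HP cells (with the replicate block 0.066, 0.15, 0.16, 0.016 and 0.032). Both corrections gave Kdm2a -0.076 and -0.13, Kdm3a -0.058 and -0.021, Kdm5a -0.079 and -0.14 and Kdm4a 0.054 in ULP cells. Kdm2b in HP cells was 0.083 and 0.062 with limma at pseudocounts of 0.1 and 1, and Kdm4a in ULP cells 0.062 and 0.057, and 0.0015 with only the 6 libraries compared. Without 1 library, Kdm2b ranged from -0.33 to 0.012 in ULP cells (positive without UP 6) and from -0.25 to 0.089 in HP cells (positive without UP 4, UP 6 or HP 5). Kdm4a in ULP cells ranged from -0.15 to 0.039 (positive without UP 4, UP 6 or ULP 6), and Kdm6b from -0.066 to 0.34 in ULP and from -0.15 to 0.26 in HP cells (negative without UP 5). Cxcl10 in ULP over UP cells was 0.024 and 0.031 with length corrected without and with the replicate block, 0.013 without ULP 4 and HP 6, and ranged from -0.26 to 0.019 without 1 library (positive without UP 5 or ULP 5). At 93 to 194 counts per library and 3 libraries per group, changes of Kdm6b within its interval could not be detected.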
